A study of Mus musculus with 9 samples.

Results

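Neuronal nicotinic acetylcholine receptors are channels of 5 subunits, and the mRNAs of 9 of their subunit genes were followed across brain libraries of mice with 1 disrupted copy of an AP-2 transcription factor gene. The genes were Chrna2, Chrna3, Chrna4, Chrna5, Chrna6, Chrna7, Chrnb2, Chrnb3 and Chrnb4, or 9 of the 54446 genes counted. They were chosen by name with their levels in these libraries already known, so every level and fold change given for them is a description and no test is drawn on as support. All 9 were among the 17355 genes that passed the filter on low counts.

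The 9 libraries came from brain tissue of male mice aged 3 to 4 months, with 3 libraries in each of 3 groups: wild type, labelled B6N, a substrain of C57BL/6; Tfap2a+/-; and Tfap2b+/-. Each heterozygote carries 1 disrupted and 1 intact copy of the gene for AP-2 alpha or AP-2 beta, and the labels name no further allele or agent. How either allele was made, the strain of the heterozygotes and the part of the brain taken are not given in the sources used here. Between 20 and 80 mg of tissue went into each extraction. Levels are counts scaled to a common library size, with the trimmed mean of M-values as the scaling between libraries (CPM). Differences are log2 fold changes with their standard errors (SE) from 1 edgeR quasi-likelihood fit over all 9 libraries, with Benjamini-Hochberg adjusted p over all 17355 genes.

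A nicotinic receptor opens when acetylcholine, or nicotine, binds between an alpha subunit and its neighbour, and lets sodium, potassium and, to a degree set by the subunits, calcium pass. In the brain, receptors of alpha4 with beta2 bind nicotine with high affinity, and alpha7 forms fast channels on its own. The alpha3 and beta4 subunits are known from autonomic ganglia and, within the brain, from the medial habenula and its target, the interpeduncular nucleus. The alpha6 and beta3 subunits are known from dopamine and noradrenaline neurons and from the retina's projections. The alpha5 subunit joins other receptors as an accessory subunit, and alpha2 is known from the interpeduncular nucleus and from some somatostatin interneurons of the hippocampus.

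The genes lie at 6 places of the mouse genome (GRCm38, GENCODE M21). Chrna5 (chr9:54980880-55007779, plus strand), Chrna3 (chr9:55010111-55026562, minus strand) and Chrnb4 (chr9:55028154-55048779, minus strand) are side by side within 67.9 kb. Chrnb3 (chr8:27368711-27399730, plus strand) and Chrna6 (chr8:27403212-27413944, minus strand) are side by side within 45.2 kb. The remaining genes lie alone: Chrna4 at chr2:181018380-181043546, Chrnb2 at chr3:89746195-89764632 and Chrna7 at chr7:63098692-63212569, all on the minus strand, and Chrna2 at chr14:66135039-66152948 on the plus strand.

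AP-2 proteins are known to bind GC-rich palindromes, so the promoters were searched on both strands for GCCNNNGGC, with 3 free bases between its arms, and, added after the promoters were seen, for the same arms with 4 free bases between them. RefSeq's windows of 300 bases, from 250 before to 50 after a start (GRCm38.p6), were matched for 6 of the 9 genes: Chrna4, Chrnb2, Chrna7, Chrna5 (with 2 starts), Chrna3 and Chrnb4. Chrna2, Chrna6 and Chrnb3 were not matched. The whole upstream stretch of Chrna3, a gene with a match and a large fold, is shown against that of its neighbour Chrna5 at its first start, and the stretches around the matches of Chrnb4 and Chrna4 are given as 30 bases each; capitals mark the match.
Chrna3, 250 upstream bases, chr9:55026563-55026812, minus strand: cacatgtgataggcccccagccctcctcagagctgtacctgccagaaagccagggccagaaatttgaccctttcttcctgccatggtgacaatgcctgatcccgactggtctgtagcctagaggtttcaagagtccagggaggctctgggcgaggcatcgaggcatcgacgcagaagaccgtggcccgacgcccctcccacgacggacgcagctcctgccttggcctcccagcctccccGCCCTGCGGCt
Chrna5, 250 upstream bases, chr9:54980630-54980879, plus strand: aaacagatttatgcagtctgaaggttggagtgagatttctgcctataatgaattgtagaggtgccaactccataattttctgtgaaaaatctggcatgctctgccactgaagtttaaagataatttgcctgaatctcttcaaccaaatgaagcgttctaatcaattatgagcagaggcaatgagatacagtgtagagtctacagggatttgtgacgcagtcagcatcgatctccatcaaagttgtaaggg
Chrnb4, upstream match, chr9:55048562-55048591, minus strand: gggtcctagtGCCGCCGGGCacagagagac
Chrnb4, downstream match, chr9:55048495-55048524, minus strand: tggggtgaccggcaGCCACCCGGCcggcca
Chrna4, upstream match, chr2:181039272-181039301, minus strand: ctcccctctcGCCGGCGGCtggaggctgca

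GCCNNNGGC was found in 1 of the 6 genes, Chrna4, where it starts at position -114 from the RefSeq start. The form with 4 free bases was found in Chrna3, at position -11, and in Chrnb4, once on each side of the start. Both patterns are common, in 16.6% and 14.8% of the 32851 windows. The Sp1 box GGGCGG, in 35.7% of windows, was found in Chrna4, Chrnb2, Chrna7, Chrna3 and the second window of Chrna5. In Chrna3 it overlaps the AP-2 match. These are matches of letters only, and no link between a match and a fold was tested. The RefSeq starts of Chrna4 and Chrnb4 lie inside GENCODE's gene bodies, with 128 and 235 of the 250 upstream bases in GENCODE exons, so longer stretches of them are not shown.

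Counts in genes ran from 21946800 to 29214975 per library, and 3 counts, the limit that a count of 0 allows, came to between 0.101 and 0.141 CPM (counting error only). Libraries of the same group differed in their levels of region and cell type markers. Where such a marker is uneven between the groups, its part and that of genotype cannot be told apart. Pax7, a midbrain transcription factor picked after its values were seen, read 8.50 CPM in wild-type library 3, 16.5 and 5.86 CPM in libraries 1 and 2 labelled Tfap2b+/-, and at most 0.0921 CPM in the other 6. Summed choroid plexus markers (5 genes) stood at 3073 CPM in wild-type library 2 and 851 CPM in Tfap2a+/- library 1, against 17.5 to 280 CPM in the rest. Serotonin neuron markers (3 genes) summed to 68.0 CPM in labelled Tfap2b+/- library 1 and at most 2.30 CPM elsewhere. Tfap2b RNA read 32.9, 8.90 and 5.81 CPM in the libraries labelled Tfap2b+/- and 2.25, 0.715 and 14.8 CPM in wild type. Its mean was thus higher where 1 copy should be disrupted, and for this reason those libraries are called "labelled Tfap2b+/-" throughout. The groups overlapped, since wild-type library 3 lay above libraries 2 and 3 labelled Tfap2b+/-. The highest readings, 32.9, 14.8 and 8.90 CPM, came from the 3 libraries with Pax7. Tfap2a RNA read 0.445, 0.223 and 0.461 CPM in Tfap2a+/- and 0.610, 0.263 and 0.734 CPM in wild type, and the groups overlapped. Since the disrupted parts of the genes are not given, neither level shows whether an allele was lost. The marker lists of neurons, astrocytes and oligodendrocytes (5 genes each) were detected in every library, at sums of 3974 to 6534, 1536 to 1817 and 1989 to 6536 CPM. In bulk tissue, fewer cells of a type and less RNA per cell cannot be told apart.

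**Figure D1:**
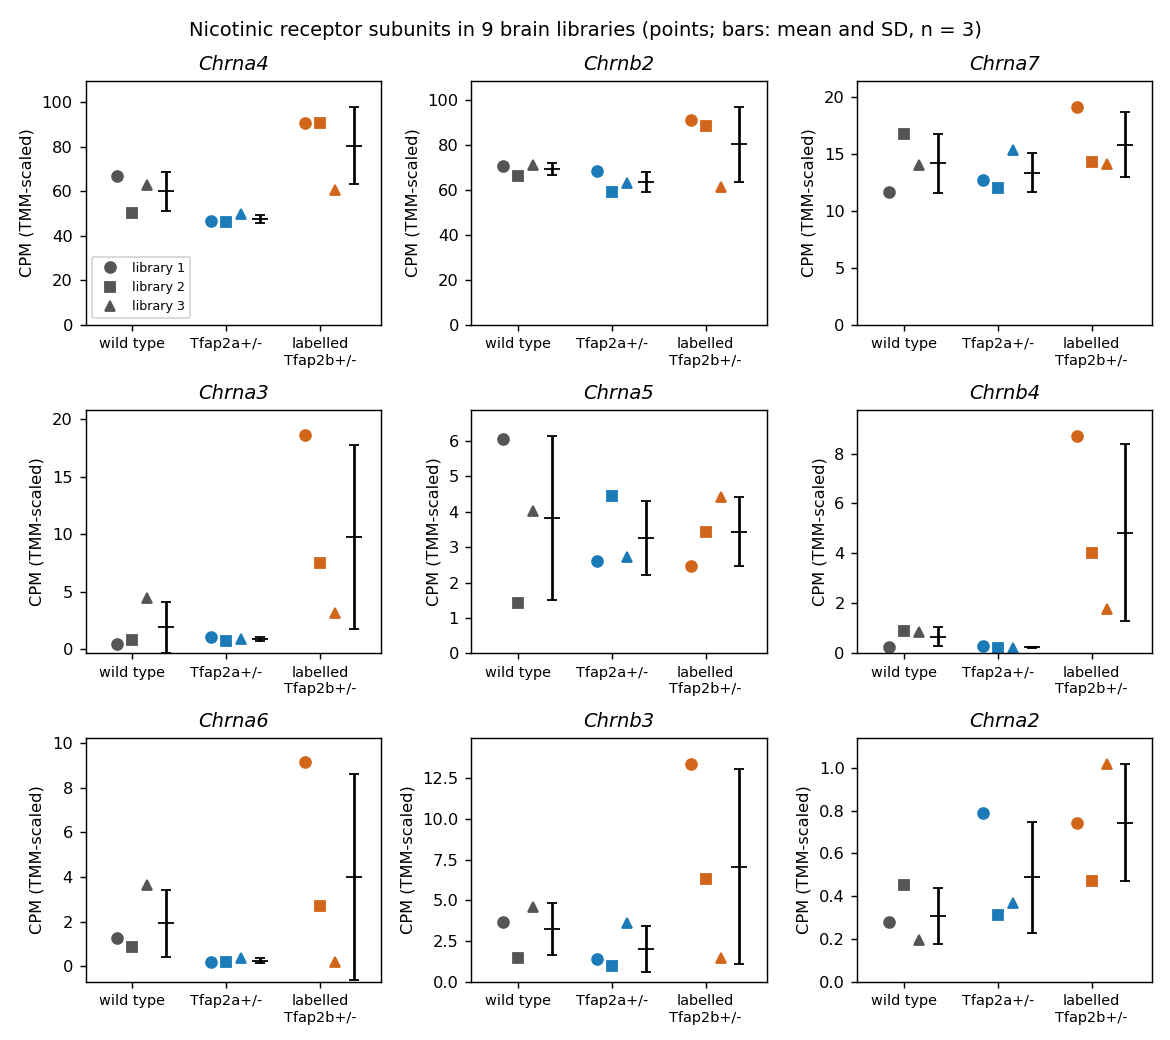
TMM-scaled CPM of each nicotinic subunit gene (vertical axes, a separate linear scale per gene) in the 3 wild-type, 3 Tfap2a+/- and 3 labelled Tfap2b+/- libraries; points are libraries and bars the mean and SD of 3. Chrna4 and Chrnb2 sit between 46.3 and 91.1 CPM everywhere, while Chrna3, Chrnb4, Chrna6 and Chrnb3 peak in labelled Tfap2b+/- library 1.

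The subunits differed in how much they varied between libraries. Chrna4, Chrnb2 and Chrna7, the subunits of the widespread brain receptors, varied little, with the highest library at 1.95, 1.54 and 1.64 times the lowest. Chrna6, Chrna3, Chrnb4 and Chrnb3, the subunits of restricted cell groups, varied most, at 53.4, 39.7, 39.1 and 13.6 times. On a log2 scale with a prior count of 2, 0.524% of the 17355 genes had a wider range than Chrna6, 0.576% a wider range than Chrna3, 0.720% than Chrnb4 and 2.04% than Chrnb3. The median gene's range was 1.64-fold. Chrna2 and Chrna5 lay between, at 5.27 and 4.24 times.

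Against wild type, 8 of the 9 subunits had a higher mean in the libraries labelled Tfap2b+/- and 8 of 9 a lower mean in Tfap2a+/-. Both comparisons use the same 3 wild-type libraries. Of all genes tested, 49.7% had a higher mean in the first comparison and 48.2% in the second. The median log2 fold over the 9 subunits was 1.06 for labelled Tfap2b+/- and -0.33 for Tfap2a+/-, beside 0.00 and -0.01 over all genes. Set against each other directly, Tfap2a+/- was lower for 9 of 9 subunits, with a median of -0.76, beside -0.01 over all genes and a higher mean for 48.3% of them. Without the 3 libraries with Pax7, which leave library 3 alone in the labelled Tfap2b+/- group, the counts were 5 higher and 4 lower for labelled Tfap2b+/- against wild type (median 0.06). They were 2 higher and 7 lower for Tfap2a+/- against wild type (median -0.18), and 3 higher and 6 lower between the heterozygotes (median -0.34), where Chrna6, Chrnb2 and Chrnb3 were the 3 higher.

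No subunit had an adjusted p below 0.05 in any of the 3 comparisons, and edgeR called 0 of 17355 genes (0%) in each. At an unadjusted p below 0.05, the fit passed 1 of 9 subunits and 666 genes (3.84%) for Tfap2a+/- against wild type. The numbers were 4 of 9 and 1841 genes (10.6%) for labelled Tfap2b+/- against wild type, and 6 of 9 and 1997 genes (11.5%) for Tfap2a+/- against labelled Tfap2b+/-. DESeq2, run as an alternative, called 30 genes (0.173%), 175 genes (1.03%) and 221 genes (1.3%) in the same order. Among its calls were Chrnb4 for labelled Tfap2b+/- against wild type and Chrna3, Chrnb4, Chrna4 and Chrna6 between the 2 heterozygotes, with the adjusted p given at each gene.

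**Figure D2:**
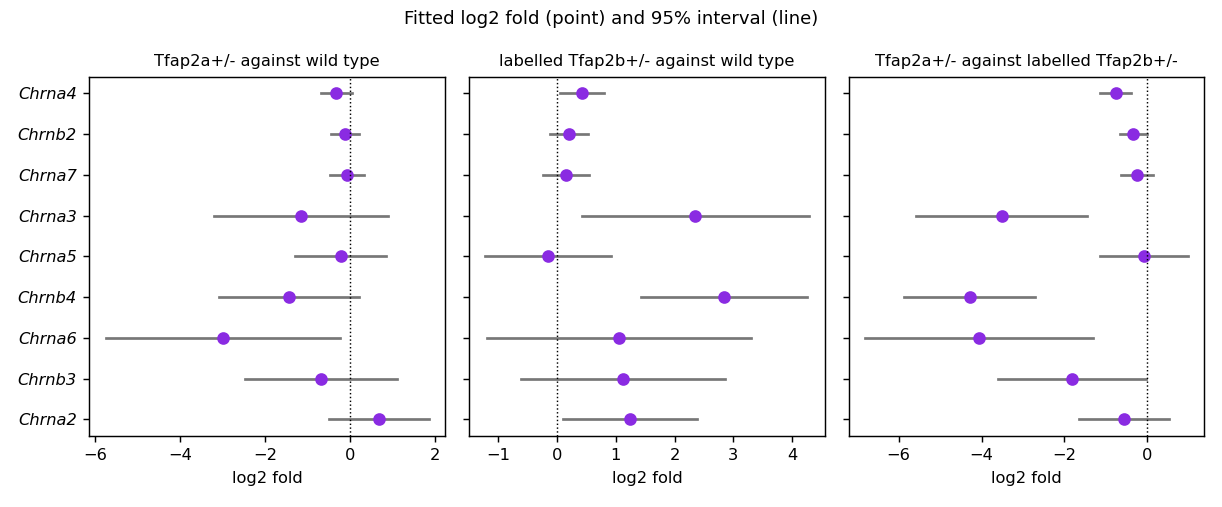
Log2 fold change of each subunit (point) with its 95% interval (line) in the 3 comparisons, from the edgeR fit over 9 libraries; each panel has its own horizontal scale. Between the heterozygotes all 9 points lie below 0, from -4.28 for Chrnb4 to -0.08 for Chrna5.

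Per kb of exon, which allows genes to be compared, Chrna4 had the highest level of the 9 in wild type, at 11.9 ± 1.74 CPM per kb (SD, n = 3). Chrnb2 followed at 8.26 ± 0.318 and Chrna7 at 3.14 ± 0.567 CPM per kb, and the ranges of these genes did not overlap. Chrna5 came next, at 1.23 ± 0.742 CPM per kb, below every library of Chrna7. Below it each gene overlapped the next in wild type: Chrna6 at 0.661 ± 0.514, Chrnb3 at 0.509 ± 0.252, Chrna3 at 0.359 ± 0.421, Chrnb4 at 0.178 ± 0.0998 and Chrna2 at 0.0816 ± 0.0347 CPM per kb. Chrna4, Chrnb2, Chrna7 and Chrna5 had the same order of means in Tfap2a+/-. In the libraries labelled Tfap2b+/- the means of Chrna4, Chrnb2 and Chrna7 did, followed by Chrna3 at 1.85 ± 1.52, Chrna6 at 1.38, Chrnb4 at 1.30, Chrnb3 at 1.11 and Chrna5 at 1.10 ± 0.311 CPM per kb, whose ranges overlapped, and Chrna2 was again the lowest. Chrna4 and Chrnb2 together made up 63.9% to 79.8% of the summed per-kb level of the 9 genes in a library. Chrna3 with Chrnb4 made up 0.555% to 13.0%, and Chrna6 with Chrnb3 1.03% to 11.6%. Each of these pairs had its highest share in labelled Tfap2b+/- library 1, where Chrna4 with Chrnb2 had its lowest.

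Chrna4 encodes the alpha subunit of the high-affinity nicotine receptor. It read 66.7, 50.1 and 63.0 CPM in wild type, 46.8, 46.3 and 49.8 CPM among Tfap2a+/- libraries, and 90.5, 90.5 and 60.6 CPM in the libraries labelled Tfap2b+/-. Every Tfap2a+/- library lay below every wild-type and every labelled Tfap2b+/- library, and labelled Tfap2b+/- library 3 lay within the wild-type range. The log2 fold was -0.33 ± 0.16 (SE) for Tfap2a+/- and 0.43 ± 0.16 for labelled Tfap2b+/- against wild type (adjusted p = 0.999 and 0.447). Between the heterozygotes it was -0.76 ± 0.16 (adjusted p = 0.33; DESeq2, 0.00996), and edgeR's adjusted p was 0.0428 without labelled Tfap2b+/- library 3. These were the only 2 alternatives under 0.05, of 9 fits with 1 library left out and 8 others. Without the 3 libraries with Pax7, the fold of labelled Tfap2b+/- against wild type was 0.06 and that between heterozygotes -0.34; library 3 is then alone in its group and taken to vary like the others.

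Groups that do not overlap were found for few subunits. Against wild type, Tfap2a+/- lay wholly below for 2 of 9, Chrna4 and Chrna6, and for 4.32% of all genes, and wholly above for 0 of 9 and 4.85% of all genes. Labelled Tfap2b+/- lay wholly above wild type for 2 of 9, Chrna2 and Chrnb4, and for 8.84% of all genes, and wholly below for 0 of 9 and 7.63%. Tfap2a+/- lay wholly below labelled Tfap2b+/- for 3 of 9, Chrna3, Chrna4 and Chrnb4, and for 9.2% of all genes, and wholly above for 0 of 9 and 8.03%.

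Chrnb2 encodes the beta subunit that pairs with alpha4. Wild-type libraries held 70.4, 66.2 and 71.1 CPM of it, Tfap2a+/- libraries 68.2, 59.1 and 63.0 CPM, and the libraries labelled Tfap2b+/- 91.1, 88.2 and 61.1 CPM. Libraries 1 and 2 of the last group were high and the third was not, as for Chrna4, and all groups overlapped. The folds against wild type were -0.13 ± 0.14 for Tfap2a+/- and 0.21 ± 0.14 for labelled Tfap2b+/- (adjusted p = 0.999 and 0.586). The latter was -0.16 without the 3 libraries with Pax7. Between the heterozygotes the fold was -0.34 ± 0.14 (adjusted p = 0.421), and 0.06 without those libraries.

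Within a library, the ratio of Chrna4 to Chrnb2 counts was higher in the libraries labelled Tfap2b+/- than in the rest, by a narrow gap. It was 0.993, 1.03 and 0.993 in the former, 0.947, 0.757 and 0.887 in wild type, and 0.686, 0.784 and 0.790 in Tfap2a+/-. Gene length cancels when such a ratio is compared between libraries. The labelled Tfap2b+/- ratios lay above all the others, including that of library 3, whose Chrna4 and Chrnb2 levels were not high. The nearest values, 0.993 in that library and 0.947 in wild-type library 1, rest on 1608 over 1619 and 1420 over 1500 counts. Counting error was not set against this gap, and how often other gene pairs separate these groups was not counted. Wild type and Tfap2a+/- overlapped.

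Chrna7 encodes the subunit of the homomeric receptor known for calcium entry and for binding alpha-bungarotoxin. Its levels were 11.6, 16.7 and 14.1 CPM in wild type, 12.7, 12.03 and 15.3 CPM among Tfap2a+/- libraries, and 19.1, 14.3 and 14.1 CPM in the libraries labelled Tfap2b+/-. Labelled Tfap2b+/- library 1 was the highest, and the groups overlapped. The folds against wild type were -0.09 ± 0.17 for Tfap2a+/-, with a 95% interval of -0.48 to 0.31, and 0.16 ± 0.17 for labelled Tfap2b+/-, with an interval of -0.24 to 0.55 (adjusted p = 0.999 and 0.743). Its ratio to Chrnb2 ran from 0.162 to 0.253, and all groups overlapped.

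**Figure D3:**
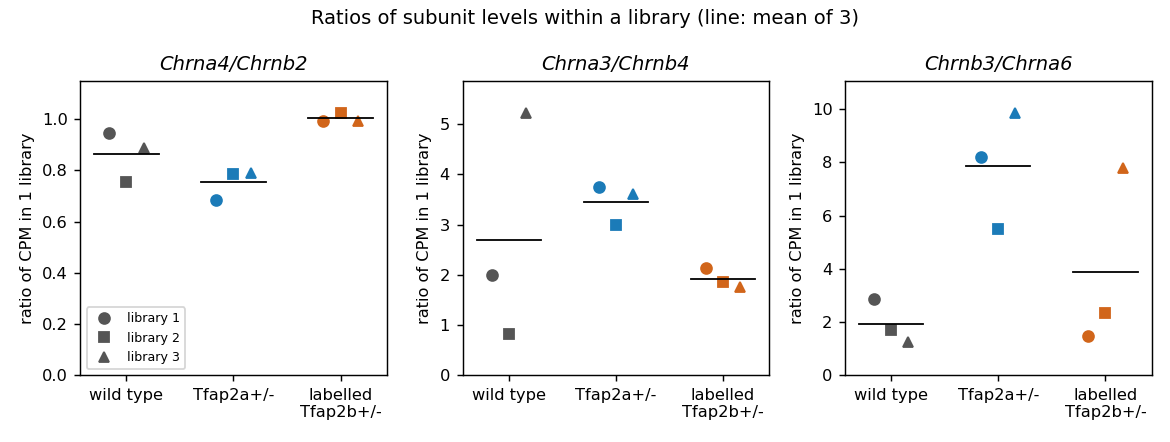
Ratio of the levels of subunit pairs within each library (vertical axes, linear from 0); points are libraries and lines the mean of 3. The 3 libraries labelled Tfap2b+/- lie at 0.993 to 1.03 for Chrna4 to Chrnb2, above all 6 others, and the 3 Tfap2a+/- libraries lie at 5.50 to 9.88 for Chrnb3 to Chrna6, above wild type.

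Chrnb4, the beta subunit of the ganglionic and habenular receptor, had the largest fold of the 9 in the libraries labelled Tfap2b+/-. It read 0.235, 0.903 and 0.850 CPM in wild type, 0.274, 0.223 and 0.230 CPM among Tfap2a+/- libraries, and 8.72, 4.01 and 1.77 CPM in the libraries labelled Tfap2b+/-. These are 5, 24 and 22 counts, then 8, 5 and 5, then 247, 119 and 47. All 3 libraries labelled Tfap2b+/- were above all 6 others, and the Tfap2a+/- libraries overlapped wild type through wild-type library 1. The fold against wild type was 2.84 ± 0.62, with a 95% interval of 1.43 to 4.25 (adjusted p = 0.272; DESeq2, 0.00425). With 1 library left out it ran from 2.11, without labelled Tfap2b+/- library 1, to 3.23, and it was 1.60 without the 3 libraries with Pax7. For Tfap2a+/- the fold was -1.44 ± 0.72 (adjusted p = 0.999), at 5 to 8 counts a library. Between the heterozygotes it was -4.28 ± 0.70, with an interval of -5.86 to -2.70 (adjusted p = 0.224; DESeq2, 2.25e-06). There edgeR's adjusted p was 0.0379 with no filter on low counts and 0.0338 without labelled Tfap2b+/- library 3. With DESeq2 these were the only 3 alternatives under 0.05, of 9 fits with 1 library left out and 8 others.

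Chrna3, the alpha partner of beta4, had the next largest fold. Its levels were 0.470, 0.753 and 4.44 CPM in wild type, 1.03, 0.668 and 0.829 CPM among Tfap2a+/- libraries, and 18.6, 7.48 and 3.13 CPM in the libraries labelled Tfap2b+/-. Wild-type library 3 was high for its group and overlapped the labelled Tfap2b+/- libraries, which lay wholly above Tfap2a+/-. The fold of labelled Tfap2b+/- against wild type was 2.35 ± 0.85 (adjusted p = 0.429; DESeq2, 0.136). It ranged from 1.49 without labelled Tfap2b+/- library 1 to 3.97 without wild-type library 3, and was 2.34 without the 3 libraries with Pax7. Tfap2a+/- stood at -1.16 ± 0.90 against wild type (adjusted p = 0.999), and at 0.45 without wild-type library 3, so that 1 library set the sign. Between the heterozygotes the fold was -3.52 ± 0.91 (adjusted p = 0.331; DESeq2, 0.00422), and -1.88 without the 3 libraries with Pax7.

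The ratio of Chrna3 to Chrnb4 lay close together in the heterozygotes, at 3.75, 3.00 and 3.60 in Tfap2a+/- and 2.14, 1.87 and 1.77 in labelled Tfap2b+/-. These groups did not overlap, though the Tfap2a+/- ratios rest on 5 to 8 counts of Chrnb4. They also rest on 30, 15 and 18 counts of Chrna3, which had 28, 24 and 23 counts on the opposite strand in the same libraries. In wild type the ratio was 2.00, 0.833 and 5.23, which spans both.

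Chrna5, the third gene of the cluster, did not share the pattern of its neighbours. It read 6.06, 1.43 and 4.02 CPM in wild type, 2.602, 4.46 and 2.72 CPM among Tfap2a+/- libraries, and 2.47, 3.44 and 4.41 CPM in the libraries labelled Tfap2b+/-. Wild type held both the highest and the lowest library, and all groups overlapped. Its folds were -0.23 ± 0.47 for Tfap2a+/-, with a 95% interval of -1.30 to 0.84, and -0.15 ± 0.47 for labelled Tfap2b+/-, with an interval of -1.22 to 0.92 (adjusted p = 0.999 and 0.923). Without wild-type library 1 they were 0.26 and 0.34. The ratio of Chrna5 to Chrna3 ran from 0.133 in labelled Tfap2b+/- library 1 to 12.9 in wild-type library 1.

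The genes around the cluster showed no difference of the size seen for Chrna3 and Chrnb4. Of 12 other genes within 200 kb, 7 passed the filter: Rab7-ps1, Ireb2, Hykk, Psma4, Ube2q2, Fbxo22 and Nrg4. Their folds ran from -0.07 to 0.62 for labelled Tfap2b+/- and from -0.09 to 0.55 for Tfap2a+/- against wild type, and 0 of 7 were called in any comparison. Ireb2, which encodes an iron-responsive RNA-binding protein, read 78.1 to 93.5 CPM over the 9 libraries, and the proteasome subunit gene Psma4 read 49.5 to 55.2 CPM.

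Levels of medial habenula markers stood beside those of Chrna3 and Chrnb4. Of 6 marker genes, 6 passed the filter and 6 had a higher mean in labelled Tfap2b+/- than in wild type, with 0 called. Their summed level was 107 to 167 CPM in the libraries labelled Tfap2b+/-, against 61.7 to 92.7 CPM in the wild-type and 73.2 to 109.5 CPM in the Tfap2a+/- libraries. Nwd2, Lrrc55 and Tac2 had the highest means of the list over the 9 libraries. Most of the summed level came from Nwd2 and Lrrc55. The sum of Tfap2a+/- library 3, at 109.5 CPM, lay above that of labelled Tfap2b+/- library 3, at 107 CPM, though its Chrnb4 read only 0.230 CPM. Nwd2 read 79.8, 69.2 and 71.9 CPM in the libraries labelled Tfap2b+/- and 44.5 to 59.6 CPM in wild type, and Lrrc55 read 43.5, 32.6 and 29.6 CPM against 10.5 to 27.1 CPM, both without overlap. Tfap2a+/- overlapped labelled Tfap2b+/- for both, with Nwd2 at 40.4, 67.7 and 73.2 CPM and Lrrc55 at 27.8, 20.9 and 32.2 CPM. Tac2 read 8.75, 6.61 and 4.64 CPM in labelled Tfap2b+/-, 2.74 to 4.70 CPM in wild type and 3.22 to 3.79 CPM in Tfap2a+/-. Gpr151, an orphan receptor of habenular axons, and the transcription factor Pou4f1 were picked out after their values were seen. Gpr151 read 10.4, 5.76 and 0.490 CPM in the libraries labelled Tfap2b+/- and 0.276 to 0.704 CPM in the other 6. Pou4f1 read 21.7, 8.12 and 0.113 CPM there and 0.329, 0.0753 and 4.33 CPM in wild type, with 0 counts in Tfap2a+/- libraries 1 and 2. In labelled Tfap2b+/- library 3, where Chrnb4 at 1.77 CPM was above the wild-type range, the list was split: Nwd2 and Lrrc55 were above that range too, Gpr151, Pou4f1 and Tac2 were within it, and Gng8, at 0.528 CPM, was below it. The part of these markers' cells in the subunit levels was not tested.

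**Figure D4:**
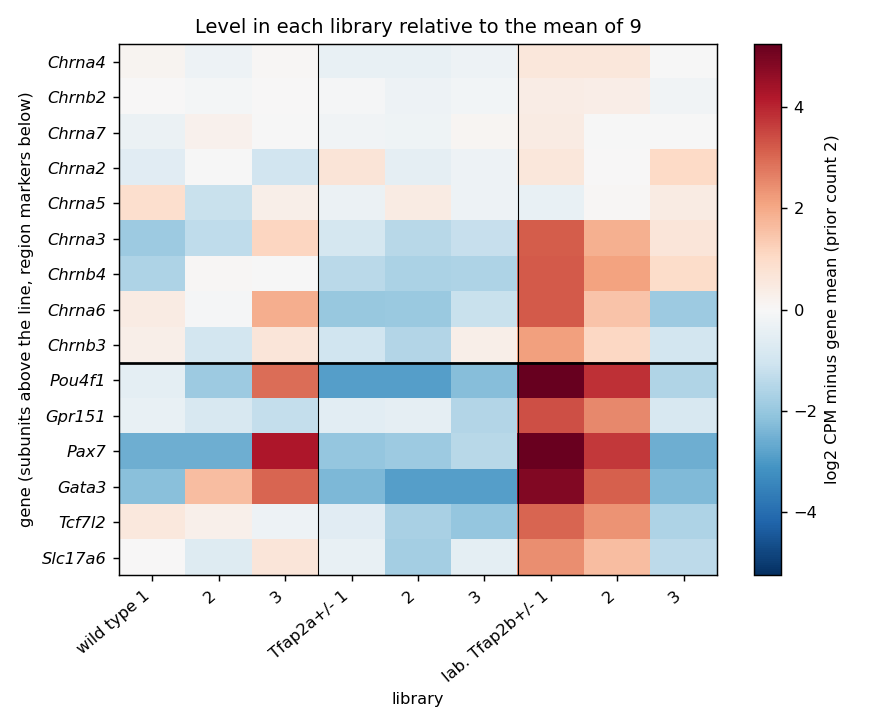
Log2 CPM (prior count 2) of the 9 subunits and of 6 region markers in each library, as the difference from the gene's own mean over 9 libraries (colour scale). Chrna3, Chrnb4, Chrna6 and Chrnb3 are highest in labelled Tfap2b+/- library 1, as are Pou4f1, Gpr151, Pax7, Gata3, Tcf7l2 and Slc17a6.

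Chrna6 encodes the alpha subunit of receptors on catecholamine axons and retinal projections. It read 1.27, 0.866 and 3.63 CPM in wild type, 0.171, 0.178 and 0.369 CPM among Tfap2a+/- libraries, and 9.14, 2.70 and 0.189 CPM in the libraries labelled Tfap2b+/-. Its counts were 27, 23 and 94, then 5, 4 and 8, then 259, 80 and 5. Every Tfap2a+/- library lay below every wild-type library, and labelled Tfap2b+/- library 3 was as low as they were. The fold for Tfap2a+/- was -3.01 ± 1.21, with a 95% interval of -5.76 to -0.26 (adjusted p = 0.999; DESeq2, 0.570). It was -2.15 without wild-type library 3. For labelled Tfap2b+/- the fold against wild type was 1.06 ± 0.99 (adjusted p = 0.695), but -0.40 without labelled Tfap2b+/- library 1 and -2.46 without the 3 libraries with Pax7. Between the heterozygotes it was -4.07 ± 1.21 (adjusted p = 0.371; DESeq2, 0.0145), and 0.32 without those 3 libraries.

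Chrnb3, the accessory subunit found with alpha6 and its neighbour on chromosome 8, varied less. Its levels were 3.66, 1.47 and 4.60 CPM in wild type, 1.40, 0.980 and 3.64 CPM among Tfap2a+/- libraries, and 13.4, 6.34 and 1.47 CPM in the libraries labelled Tfap2b+/-. All groups overlapped, with labelled Tfap2b+/- library 3 level with the lowest wild-type library. The folds against wild type were -0.70 ± 0.79 for Tfap2a+/- and 1.13 ± 0.76 for labelled Tfap2b+/- (adjusted p = 0.999 and 0.592). The latter was 0.28 without labelled Tfap2b+/- library 1 and -0.79 without the 3 libraries with Pax7. Between the heterozygotes the fold was -1.82 ± 0.79 (adjusted p = 0.429), and 0.45 without those libraries.

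The ratio of Chrnb3 to Chrna6 differed between groups of libraries more than Chrnb3 itself did. It was 8.20, 5.50 and 9.88 in Tfap2a+/- and 2.89, 1.70 and 1.27 in wild type, without overlap. In labelled Tfap2b+/- it was 1.46, 2.35 and 7.80, and the third library lay among the Tfap2a+/- values. The high ratios all rest on 4 to 8 counts of Chrna6.

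Of 14 other genes within 200 kb of Chrnb3 and Chrna6, 5 passed the filter: Rab11fip1, Got1l1, Adrb3, Gm45470 and Eif4ebp1. Their folds ran from -0.70 to -0.10 for Tfap2a+/- and from -0.84 to 0.13 for labelled Tfap2b+/- against wild type, with 0 of 5 called.

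Markers of dopamine neurons and of the midbrain roof also varied between libraries. Of 8 dopamine neuron genes, 5 passed the filter. The summed level of all 8 was 38.1 to 58.9 CPM in wild type, 39.3 to 40.4 CPM in Tfap2a+/-, and 195, 82.9 and 51.7 CPM in the libraries labelled Tfap2b+/-. Aldh1a1, Ddc and Th had the highest means of the list over the 9 libraries. In the libraries labelled Tfap2b+/- Aldh1a1 read 106, 73.5 and 25.6 CPM, Ddc 30.1, 6.50 and 5.36 CPM, and Th 11.6, 1.28 and 17.6 CPM. Of the list, only Th was highest in library 3 of this group, where Chrna6 was low, and the other genes were highest in library 1. Library 3 also had the highest sum of olfactory bulb markers, at 124 CPM, and the part of that list in Th was not tested. Slc6a3, the dopamine transporter, read 9.71 CPM in library 1, 1.21 CPM in library 3 and at most 0.446 CPM in the other 7. Wild-type library 3, the wild-type library with the most Chrna6, had a sum of 58.9 CPM, with Aldh1a1 at 50.2 CPM and 0 counts of Slc6a3. Wild-type library 2, the one with the least Chrna6, was close to it, with a sum of 58.3 CPM and Aldh1a1 at 47.5 CPM. Slc6a3, Pitx3, En1 and Foxa1 were each at 0 in at least 1 library. Of 4 noradrenaline neuron genes 0 passed the filter, and their sum stayed between 0.101 and 0.507 CPM.

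The tectal list (6 genes, all passed) summed to 4.04 to 33.1 CPM in wild type, 2.44 to 8.76 CPM in Tfap2a+/- and 5.81 to 87.4 CPM in labelled Tfap2b+/-. Pax7, Gata3 and Sox14 were at 0 in some libraries. The thalamic list (8 genes, all passed) summed to 182 to 242 CPM in wild type, 79.3 to 151 CPM in Tfap2a+/- and 605, 814 and 82.7 CPM in labelled Tfap2b+/-, with no gene at 0. Tfap2a+/-, with the lowest mean of Chrna6, was below wild type in the thalamic sum, as was labelled Tfap2b+/- library 3, low in Chrna6. Within wild type and labelled Tfap2b+/- the order differed. Wild-type library 2 had the highest thalamic sum of its group, at 242 CPM, and the least Chrna6, at 0.866 CPM. Labelled Tfap2b+/- library 2 had the highest sum, at 814 CPM, but less Chrna6 than library 1 (2.70 against 9.14 CPM). In the tectal sum labelled Tfap2b+/- library 3, at 5.81 CPM, lay within the wild-type range. It was above wild-type library 1, at 4.04 CPM, which had more Chrna6 (1.27 against 0.189 CPM). The part of these regions in the subunit levels was not tested.

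Chrna2 had the lowest per-kb level of the 9 in wild type. It read 0.282, 0.452 and 0.193 CPM in wild type, 0.787, 0.312 and 0.369 CPM among Tfap2a+/- libraries, and 0.741, 0.472 and 1.02 CPM in the libraries labelled Tfap2b+/-. These values rest on 5 to 27 counts a library. Labelled Tfap2b+/- lay above wild type without overlap, by the narrow gap of 0.472 against 0.452 CPM, and Tfap2a+/- overlapped both. The folds were 1.24 ± 0.50 for labelled Tfap2b+/- and 0.68 ± 0.52 for Tfap2a+/- (adjusted p = 0.462 and 0.999). They were 0.68 and 0.19 when reads of both strands were counted together. The summed level of 4 somatostatin interneuron markers, all passed and none at 0, was lower in labelled Tfap2b+/-, at 99.5 to 135.1 CPM, than in wild type, at 136.0 to 158.8 CPM. Of the 4, Sst and Crhbp were lower, with folds of -0.48 and -0.76, and Chodl and Elfn1 higher, with folds of 0.39 and 0.00. The highest library of Chrna2, labelled Tfap2b+/- library 3, also had the highest sum of 4 olfactory bulb markers (2 passed, Tbx21 at 0 in 1 or more libraries), at 124 CPM against at most 18.7 CPM in the other 8, and the part of either list in its level was not tested.

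**Figure D5:**
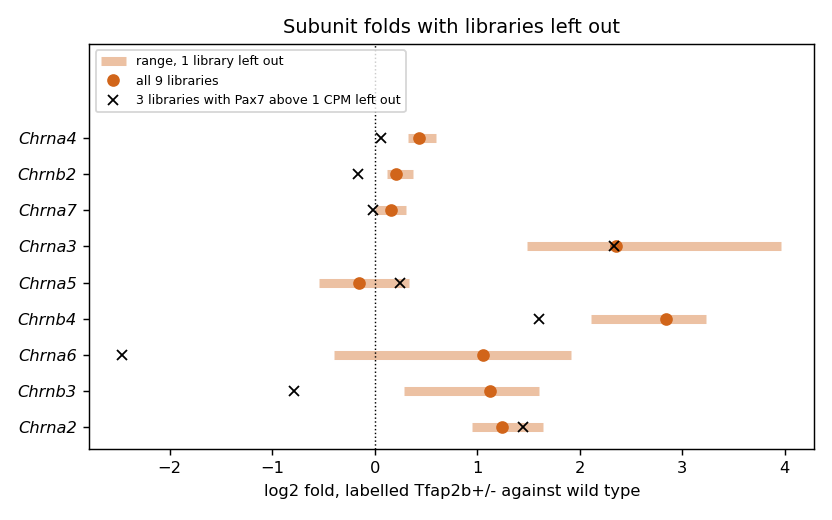
Log2 fold change of labelled Tfap2b+/- against wild type for each subunit with all 9 libraries (circle), the range over fits with 1 library left out (bar) and the fit without the 3 libraries with Pax7 above 1 CPM (cross). Chrnb4, Chrna3, Chrna2 and Chrna4 lie above 0 in all of these, and Chrna6 ranges from -0.40 to 1.91 with 1 library left out and stands at -2.46 in the last.

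Reads from the opposite strand touched 3 of the subunits. Over Chrnb2 they made up 44.9% of stranded counts, and Adar, the gene of an RNA-editing enzyme on the other strand, overlaps it over 7252 bases. Over Chrna3 they came to 12 to 39 counts a library, with no annotated gene overlapping there, and exceeded the sense counts in 3 libraries: 39 against 10 in wild-type library 1, 24 against 15 in Tfap2a+/- library 2 and 23 against 18 in Tfap2a+/- library 3. Counting both strands together gave a fold of 1.76 for Chrna3 in labelled Tfap2b+/- against wild type and of -2.48 between the heterozygotes. Over Chrna2 they made up 24.5% of counts, and over the other 6 subunits less than 1%.

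The genes with the most similar levels across the 9 libraries were sought for the 6 subunits with at least a 4-fold range, by the root mean square difference in log2 CPM centred on each gene's mean. For Chrnb4 the nearest of the 17354 other genes was Chrna3, at 0.66, followed by Tdpx-ps1 at 0.77 and Gm7335 at 0.79. For Chrna3 Chrnb4 came second, between Epyc at 0.60 and Cubn at 0.68. Chrna5, its other neighbour on the chromosome, ranked 14297 at 1.81. Chrna6 was nearest to Irx5 at 0.55, Gabrr2 at 0.64 and Irx3 at 0.74, with its neighbour Chrnb3 ranked 12 at 0.93. Irx3 and Irx5 encode homeodomain factors, and Gabrr2 a GABA receptor subunit known from the retina. Chrnb3 was nearest to Slc17a6, which encodes the vesicular glutamate transporter of subcortical neurons, at 0.46, then to B230312C02Rik and Gm37460, both at 0.51. For Chrna5 the 3 nearest were Gm2824, Sla2 and Abcg3 at 0.22 to 0.24, and for Chrna2 they were Gpc3, H2-Aa and Lmntd1 at 0.25 to 0.28. Chrna4 and Chrnb2 lay 0.20 apart. These distances describe 9 libraries that share genotypes and tissue makeup, and genes with a small range are closer to each other by construction.

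The other nicotinic subunit genes were scarce. Of the 7, Chrna1 and Chrnb1, of the muscle receptor, passed the filter, at 0.0939 to 0.772 and 0.369 to 0.981 CPM. Chrna9, Chrna10 and Chrne, known from hair cells and muscle, reached at most 0.226, 1.17 and 0.171 CPM, and Chrnd and Chrng had 0 counts in all 9 libraries. Of the 2 that passed, 0 were called.

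Genes for partners that fold, traffic or bind nicotinic receptors were taken as a list. Of its 10 genes 8 passed the filter, with 3 higher and 5 lower in each heterozygote against wild type, and 0 called. The summed level of all 10 was 746 to 827 CPM in labelled Tfap2b+/-, below wild type, at 946 to 1089 CPM, without overlap, and 841 to 997 CPM in Tfap2a+/-. Lynx1, a membrane-tethered inhibitor of nicotinic receptors, read 394.9 to 512.6 CPM in wild type, 369.8 to 488.5 CPM in Tfap2a+/- and 265.3 to 388.7 CPM in labelled Tfap2b+/-, where it lay below wild type without overlap (log2 fold -0.39, adjusted p = 0.475). Ly6e, at 85.6 to 137.1 CPM there against 143.6 to 170.5 CPM in wild type, did not overlap either (log2 fold -0.45, adjusted p = 0.497). Ric3, a chaperone of alpha7, read 87.6 to 102.5 CPM in all 9 libraries. Lypd1, of the same Ly6 family as Lynx1, read 239.5 CPM in wild-type library 2 and 50.1 to 95.9 CPM in the other 8, with a fold of -1.01 in labelled Tfap2b+/- (adjusted p = 0.466).

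Of 7 genes for making, loading and breaking down acetylcholine, 6 were higher and 1 lower in Tfap2a+/-, and 5 higher and 2 lower in labelled Tfap2b+/-, with 0 called. Ache, the main acetylcholinesterase, had folds of -0.13 and 0.49, and Bche, the other cholinesterase, of 0.73 and 0.82. Slc5a7, the choline transporter of cholinergic terminals, read 1.22 to 4.25 CPM in wild type, 3.27 to 23.3 CPM in Tfap2a+/- and 5.46 to 14.1 CPM in labelled Tfap2b+/-. Its folds were 2.30 and 1.82 (adjusted p = 0.999 and 0.463). Prima1, which anchors acetylcholinesterase to the membrane, had folds of 0.42 and -0.08. Beside these, the summed level of 8 cholinergic neuron genes was 3.05 to 17.2 CPM in wild type, 6.45 to 75.2 CPM in Tfap2a+/- and 11.7 to 25.8 CPM in labelled Tfap2b+/-. That list shares 3 genes with the first (Slc5a7, Chat and Slc18a3), and its Lhx8 and Gbx1 were at 0 in some libraries. Its part in these folds was not tested.

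All 5 muscarinic receptor genes, whose products signal through G proteins, passed the filter. In Tfap2a+/- 1 was higher and 4 lower than wild type, and in labelled Tfap2b+/- 2 were higher and 3 lower, with 0 called. Chrm1, the main cortical and hippocampal type, read 203.9 to 216.1 CPM in wild type and 60.5, 152.3 and 188.8 CPM in labelled Tfap2b+/-, below it without overlap (log2 fold -0.64, adjusted p = 0.516). The lowest of these was library 1, the library with the most Chrna3, Chrnb4, Chrna6 and Chrnb3. Chrm2, an inhibitory autoreceptor, had the opposite order there, at 66.7, 37.1 and 31.4 CPM (log2 fold 0.49, adjusted p = 0.575). Chrm3 and Chrm4 stood at -0.32 and -0.42 (adjusted p = 0.677 and 0.668).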

How the data were processed

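Poly(A) RNA of 9 brain libraries was sequenced after a dUTP strand-marking preparation, per the labels' protocols. The authors deposited whole-number counts per gene and library. The submitters' processing notes list GRCm38.p6 as the build and, as tools, STAR 2.6.1d, cutadapt 2.4 and edgeR. Those sources do not give an annotation release; 54409 of 54446 identifiers were found in GENCODE M21, ignoring versions. Nothing says that the 3 libraries of a group are from different animals, and the p-values then reflect only how far these samples spread, a spread that may be technical. No 2 libraries of a group agreed within sampling noise (chi-square per degree of freedom at least 19.8).

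Reverse-strand counts, the sense strand of this kit, were used; opposite-strand counts made up 4.16% to 4.94% of stranded counts. Rows naming no gene (15.5% to 19.7% of fragments) were left out. Genes were filtered with filterByExpr and tested with edgeR 4.0.16 in R 4.3.3 (TMM, quasi-likelihood F-test, genotype as the only term, all 9 libraries, adjusted p threshold 0.05), after a test on simulated data. DESeq2 1.42.0, other filters, scalings and strands, a replicate block and left-out libraries were alternatives.

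The subunits and gene lists were chosen with earlier results of these data known. Named were the 9 subunits, the other nicotinic genes, Tfap2a and Tfap2b, up to 4 members of highest mean CPM in each pathway list and up to 3 in each marker list, all genes passing the filter within 200 kb of the 2 clusters, and the 3 nearest genes. Pax7, Gata3, Pou4f1, Gpr151, Gng8, Tcf7l2, Slc17a6, Slc6a3 and Chodl were named outside this rule, after their values were seen, except where a list put them among its highest. Also named were genes with a library without counts (Sox14, Pitx3, En1, Foxa1, Tbx21, Lhx8 and Gbx1) and genes shared between lists. Replicate numbers were checked for pairing and gave no sign of it, though the check cannot exclude it.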

Additional observations from a re-analysis of the deposited data

How the results depend on the processing

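The number of genes called by edgeR, 0 in each comparison, was also 0 with DESeq2 size factors, a stricter filter, both strands counted, the robust fit, only the 2 genotypes compared, and without the 3 libraries with Pax7 (chosen after seeing the data). With no filter on low counts it was 2 for Tfap2a+/- against wild type, 0 for labelled Tfap2b+/- against wild type and 7 between the heterozygotes, and DESeq2 called 30, 175 and 221. With 1 library left out the counts ran from 0 to 3 (3 without Tfap2a+/- library 2), from 0 to 4 (2 without labelled Tfap2b+/- library 1, 4 without library 3) and from 0 to 31 (31 without labelled Tfap2b+/- library 3, 3 without Tfap2a+/- library 2, 2 without labelled Tfap2b+/- library 1); the cause was not tested. With the replicate number as a block the counts were 0, 0 and 0, and 627, 1718 and 1848 genes had an unadjusted p below 0.05. Deviations from group means correlated at -0.35 to 0.34 between same-numbered libraries and at -0.39 to 0.37 between the others. This gave no sign of pairing. It cannot exclude pairing, because the libraries of a group differ widely in tissue markers. Depth limits Chrna2, Chrna6 and Chrnb4 most, with 4 to 8 counts in some libraries.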
